A study of Canis lupus familiaris with 36 samples.

Results

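The comparison described here is that of CLBL-1 cells, a line of canine diffuse large B-cell lymphoma, after 72 h with 1 μM Ibrutinib (Ibr) against the same line after 72 h with the vehicle DMSO alone. Its members were chosen by treatment and time. They are 5 of the 36 libraries of the series, namely Ibr 72 h replicates 1 and 2 and DMSO 72 h replicates 1 to 3. Replicates 1, 2 and 3 are cell passages p121, p126 and p128 of 1 line, and passage is a term of the fit. The p-values therefore measure the spread left after passage, pooled over all groups of the series, and not that between animals. Ibr 72 h replicate 3 (passage p128) was kept out of the tests and serves below as a check. The authors left that library out as well. All groups had DMSO in the medium, because Ibr was dissolved in it. The control held the DMSO concentration of the combined treatment, and the paper does not give that of the wells with Ibr alone. The series also holds incubations of 24 h and 48 h, the inhibitor AS-605240 (AS, 5 μM) and the combination (Ibr + AS). Their libraries were part of the fit, on 35 libraries, that set the spread behind every p-value. The other times and AS also show where the 72 h response to Ibr differs. The study asked which genes respond when BTK and PI3K are inhibited in this lymphoma model.

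Ibrutinib binds covalently to Bruton's tyrosine kinase (BTK), which passes the signal of the B-cell receptor (BCR) to phospholipase C gamma, and from there to calcium, protein kinase C, NF-kB and the MAP kinases. Immediate early genes such as EGR1 are induced soon after BCR engagement and are a common readout of the MAP kinase branch. AS-605240 inhibits the gamma isoform of PI3K, a family of lipid kinases whose product brings BTK and AKT to the membrane.

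RNA was sequenced from poly-A-enriched libraries and the deposited values are read counts per gene. The 5 libraries held between 10021535 and 14581090 reads on genes. Levels are given as CPM (reads of a gene relative to the library total, scaled by TMM), and 3 reads, used below as the floor of detection, are worth 0.204 to 0.293 CPM in these libraries. A CPM is a share of the RNA sampled, so fewer cells of a type and less RNA per cell cannot be told apart. Among B-cell genes, TNFRSF13C (the BAFF receptor) had 70.98 to 81.3 CPM with DMSO and 123 to 137 CPM with Ibr on plain library size, and DLA-DRA (MHC class II) had 4263 to 4738 and 2305 to 2652 CPM. IFNG, IL2RB, TREM2, MLANA and SPDEF were at 0 reads throughout the 5 libraries, and the 5 T and NK cell markers summed to 0.188 to 0.248 CPM with DMSO and 0.0998 to 0.296 CPM with Ibr. LYZ (90.2 to 115 CPM with DMSO, 114 to 129 CPM with Ibr) made up nearly all of the myeloid sum, and ESRP1 (13.8 to 15.8 and 16.9 to 19.01 CPM) most of the melanocyte and epithelial sum. The part of these markers in the results was not tested. A symbol was paired with only 1068 of the 18670 genes tested (5.72%). The left-out Ibr library stood apart: its mean Euclidean distance in log2 CPM, over genes averaging 1 CPM or more, was 33.65 to the other Ibr 72 h libraries, 31.18 to the AS 72 h, 31.54 to the DMSO 48 h and 43.71 to the DMSO 72 h libraries.

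A total of 745 genes were DEGs (adjusted p-value no higher than 0.05, after Benjamini and Hochberg, with a log2 fold change, log2 FC, beyond 1 in either direction), which is 3.99% of the genes tested. Of these, 242 (1.3%) were higher and 503 (2.69%) were lower with Ibr. The median log2 FC was 1.46 among the higher and -1.59 among the lower DEGs, against -0.04 over all genes tested. The absolute log2 FC exceeded 2 for 213 DEGs, of which 58 were higher and 155 lower. Genes near silence were part of this: both Ibr libraries had 3 reads or fewer for 84 DEGs, and all DMSO libraries had 3 reads or fewer for 26 DEGs. A mean of at least 1 CPM over the 5 libraries was reached by 583 DEGs, which is 5.4% of the 10806 genes at that level. Shares of all genes given beside the lists below include genes under that level, which were DEGs less often. Most lists have most of their members above it, so these shares are a low yardstick. The Ibr and DMSO libraries did not overlap for 743 DEGs, and for 42.4% of all genes tested. A symbol was at hand for 51 DEGs, 21 higher and 30 lower (4.78% of the genes with a symbol), so the named genes below are the largest changes among those genes alone.

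**Figure D1:**
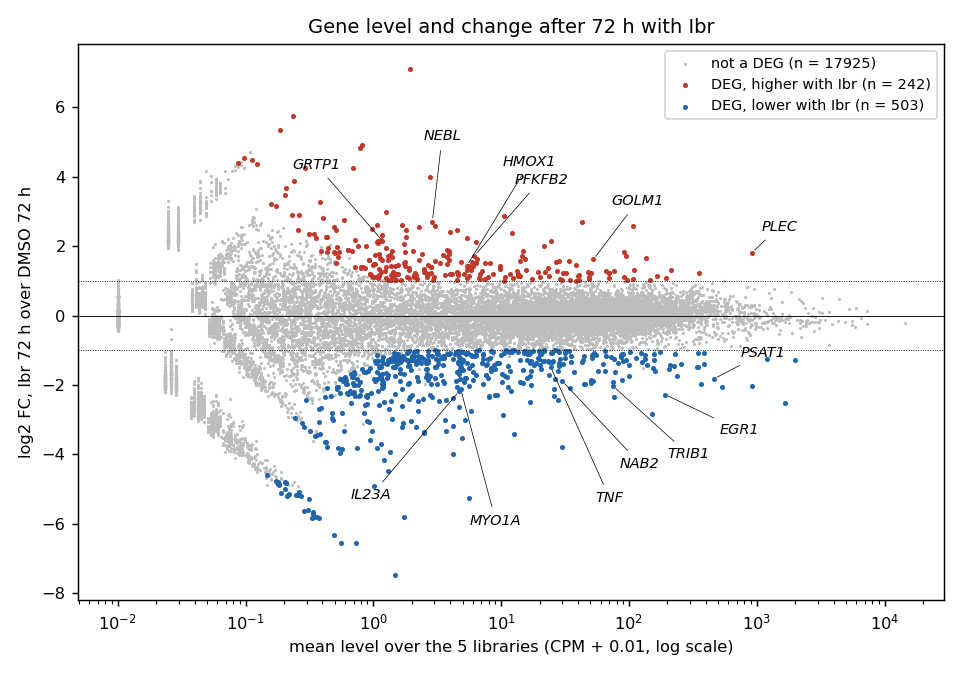
Each point is 1 of the 18670 genes tested, with its mean level over the 5 libraries (CPM, log scale) on the x axis and its log2 FC of Ibr 72 h over DMSO 72 h on the y axis. The 242 higher and 503 lower DEGs are coloured, and PLEC (log2 FC 1.82), EGR1 (-2.28) and PSAT1 (-1.83) are among the named DEGs at high levels.

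Among genes with a symbol and at least 1 CPM, the one that fell most was EGR1 (ENSCAFG00000001254), an immediate early transcription factor downstream of the MAP kinase ERK. It stood at 283, 238 and 311 CPM in the DMSO libraries and at 70.1 and 58.9 CPM in the Ibr libraries. The left-out Ibr library had 72.4 CPM, so every Ibr library lay below every DMSO library. The log2 FC was -2.28 (standard error, SE, 0.62, adjusted p-value 0.0111). The adjusted p-value was 0.0935 without passage as a block and 0.191 without Ibr 72 h replicate 1, and EGR1 was then not a DEG. NAB2 (ENSCAFG00000000160), a corepressor that EGR1 induces and that represses EGR1 in turn, stood at 38.1, 44.1 and 46.3 CPM with DMSO and at 12.3 and 9.48 CPM with Ibr, with 20.8 CPM in the left-out library. It fell with a log2 FC of -1.89 (SE 0.15, adjusted p-value 3.55e-20), and its groups did not overlap, which the naming rule required. IER3, an immediate early gene induced through ERK and NF-kB, had 15.4, 17.8 and 22.4 CPM with DMSO and 6.85 and 8.41 CPM with Ibr (log2 FC -1.27, SE 0.22).

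TRIB1 (ENSCAFG00000001077), a pseudokinase that brings substrates to the ubiquitin ligase COP1, was almost level within each group. It had 108, 108 and 105 CPM with DMSO and 27.5 and 27.5 CPM with Ibr. The left-out library, at 32.6 CPM, was close to the other Ibr libraries. TRIB1 was 4.11-fold lower by the fit, with a log2 FC of -2.04 (SE 0.27, adjusted p-value 6.68e-06). It is counted in the list on PI3K, mTOR and FOXO, in which SGK1 and DEPTOR fell too. SGK1, a kinase activated through mTORC2, had 87.8, 78.5 and 80.1 CPM with DMSO and 36.97 and 28.2 CPM with Ibr (log2 FC -1.38, adjusted p-value 0.000903). DEPTOR, an inhibitor of mTOR, had 4.36, 2.803 and 3.495 CPM with DMSO and 1.02 and 1.76 CPM with Ibr (log2 FC -1.30), and was not a DEG without Ibr 72 h replicate 1 (adjusted p-value 0.137) or DMSO 72 h replicate 1 (0.059). Of the 15 members tested, 3 were DEGs, all lower (background 2.69%), and the median log2 FC was -0.05. At an adjusted p-value of at most 0.05 alone, which 17.6% of all genes passed, 5 members were higher and 4 lower. TFEB, a transcription factor of lysosomal genes, was among the higher ones (log2 FC 0.64).

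PSAT1 (ENSCAFG00000001570), the aminotransferase of serine synthesis, stood at 587, 656 and 695 CPM with DMSO and at 180.5 and 185 CPM with Ibr. The left-out library had 227 CPM, far below the DMSO libraries. Its log2 FC was -1.83 (SE 0.11, adjusted p-value 1.12e-29). SHMT2, the mitochondrial enzyme that passes a carbon of serine to folate, was lower by less, at 478 ± 23.9 CPM (SD, n = 3) with DMSO and 285 ± 10.02 CPM (n = 2) with Ibr (log2 FC -0.75, adjusted p-value 4.95e-08). MTHFD1L of the mitochondrial folate pathway (log2 FC -0.48, adjusted p-value 0.000127) and the methionyl-tRNA synthetase MARS1 (-0.39, 0.00267) were lower as well. Other members of the list on amino acid supply and ATF4 went the other way. VARS1, the valyl-tRNA synthetase, had 240.1, 224 and 266 CPM with DMSO and 437 and 445 CPM with Ibr (log2 FC 0.85, adjusted p-value 1.02e-10), and PYCR3 of proline synthesis had a log2 FC of 0.63. ATF4, the transcription factor of the amino acid response, had a log2 FC of -0.33 that did not pass (adjusted p-value 0.0552). Of the 13 members tested, PSAT1 was the DEG (3.99% of all genes were DEGs). At an adjusted p-value of at most 0.05, 2 were higher and 4 lower (8.36% and 9.26% of all genes). The median log2 FC was -0.24.

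Cytokine genes were among the lower DEGs. TNF (ENSCAFG00000000517) had 34.7, 33.4 and 30.9 CPM with DMSO, 10.3 and 12.8 CPM with Ibr and 13.7 CPM in the left-out library. Its log2 FC was -1.48 (SE 0.34, adjusted p-value 0.00306), with no overlap between the groups, again by the naming rule. IL23A (ENSCAFG00000000120), the subunit that is particular to interleukin 23, had 5.11, 8.502 and 6.99 CPM with DMSO, 1.31 and 1.56 CPM with Ibr and 2.35 CPM in the left-out library (log2 FC -2.18, SE 0.30, adjusted p-value 3.83e-09). IL5, a growth factor of eosinophils and B cells, was low throughout, with 16, 13 and 21 reads in the DMSO and 4 and 1 reads in the Ibr libraries, and was a DEG with a log2 FC of -2.56 (SE 0.59). Without replicate 2 of every group, and with Ibr 72 h replicate 3 kept in its place, its adjusted p-value was 0.0657. LTA, the neighbour of TNF that encodes lymphotoxin alpha, was higher instead, at 51.1 ± 3.93 CPM (SD, n = 3) with DMSO and 75.5 ± 3.36 CPM (n = 2) with Ibr (log2 FC 0.61, adjusted p-value 1.94e-05).

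Of the 15 members of the NF-kB and TNF list that were tested, IER3 and TNF were DEGs, both lower (background 2.69%). At an adjusted p-value of at most 0.05, 2 were higher and 3 lower (8.36% and 9.26% of all genes). The median log2 FC was -0.11. The remaining lower member was SQSTM1, an autophagy receptor and signalling scaffold (log2 FC -0.77). TNFAIP3, a feedback inhibitor of NF-kB, had a log2 FC of -0.30 that did not pass (adjusted p-value 0.0776). Of the 11 members of the cytokine list, 2 were DEGs (IL5 and IL23A), both lower (background 2.69%). At an adjusted p-value of at most 0.05, 2 were higher and 2 lower, with a median log2 FC of -0.08. STAT6, the transcription factor of interleukin 4 signalling, was one of the higher members (log2 FC 0.57). In the interferon list no member was a DEG, 3 of 9 were higher and 1 lower, and TRIM56 (0.68), IRF1 (0.49) and APOL6 (0.44) had the lowest p-values.

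The other genes that fell most have varied roles. MYO1A, an unconventional myosin of the brush border, had 7.08, 6.54 and 7.397 CPM with DMSO and 1.82 and 1.27 CPM with Ibr (log2 FC -2.13, adjusted p-value 1.68e-09). TTC39B had 10.3, 10.2 and 10.2 CPM with DMSO and 2.55 and 2.64 CPM with Ibr (log2 FC -1.98, adjusted p-value 3.46e-12). ATP8B1, a phospholipid flippase (log2 FC -1.60), ALDH8A1, an aldehyde dehydrogenase (-1.62), TSPAN33, a tetraspanin of activated B cells (-1.66), and TNXB, a matrix protein (-1.55), fell too. For all of these the left-out library lay below the 3 DMSO libraries. TSPAN33 was not a DEG without Ibr 72 h replicate 1 (adjusted p-value 0.178) or replicate 2 (0.0528). A4GALT, the synthase of the glycolipid Gb3 (CD77), was the exception among the named lower DEGs in the left-out library: it had 6.54, 6.35 and 6.91 CPM with DMSO, 2.19 and 2.83 CPM with Ibr and 8.24 CPM in the left-out library. Its log2 FC was -1.35 (adjusted p-value 0.000111), and -0.61 (adjusted p-value 0.22) with that library in the fit. TPH2, the neuronal tryptophan hydroxylase, was a DEG at 1.71 ± 0.303 CPM (SD, n = 3) with DMSO and 0.621 ± 0.0493 CPM (n = 2) with Ibr, and not without Ibr 72 h replicate 2 (adjusted p-value 0.3) or DMSO 72 h replicate 3 (0.0524).

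Among genes without a symbol, ENSCAFG00000003904 had 22, 21 and 47 reads in the DMSO libraries and none in either Ibr library, which is at least 9.48-fold lower with 3 reads per library as the floor. With DESeq2 it was given no adjusted p-value and was not called. ENSCAFG00000010242 had 35, 30 and 41 reads with DMSO and 1 and 0 with Ibr, at least 11.1-fold lower. In the other direction, ENSCAFG00000009850 had 1, 0 and 0 reads with DMSO and 56 and 56 with Ibr, at least 19.7-fold higher. ENSCAFG00000028656 had 0.136, 0.2803 and 0.732 CPM with DMSO, 4.45 and 8.11 CPM with Ibr and 2.51 CPM in the left-out library (log2 FC 3.99, adjusted p-value 3.48e-11). The left-out library lay on the Ibr side of the DMSO libraries for each of these genes. At 24, 48 and 72 h, ENSCAFG00000003904 had means of 0.0689, 0.154 and 2.43 CPM with DMSO and 0.0282, 0 and 0 CPM with Ibr. ENSCAFG00000010242 had 0.195, 0.368 and 2.84 CPM with DMSO and 0.276, 0.092 and 0.0365 CPM with Ibr. ENSCAFG00000009850 had 2.14, 0.982 and 0.0227 CPM with DMSO and 4.46, 5.85 and 4.78 CPM with Ibr. In each of these time courses the DMSO mean moved further than the Ibr mean.

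**Figure D2:**
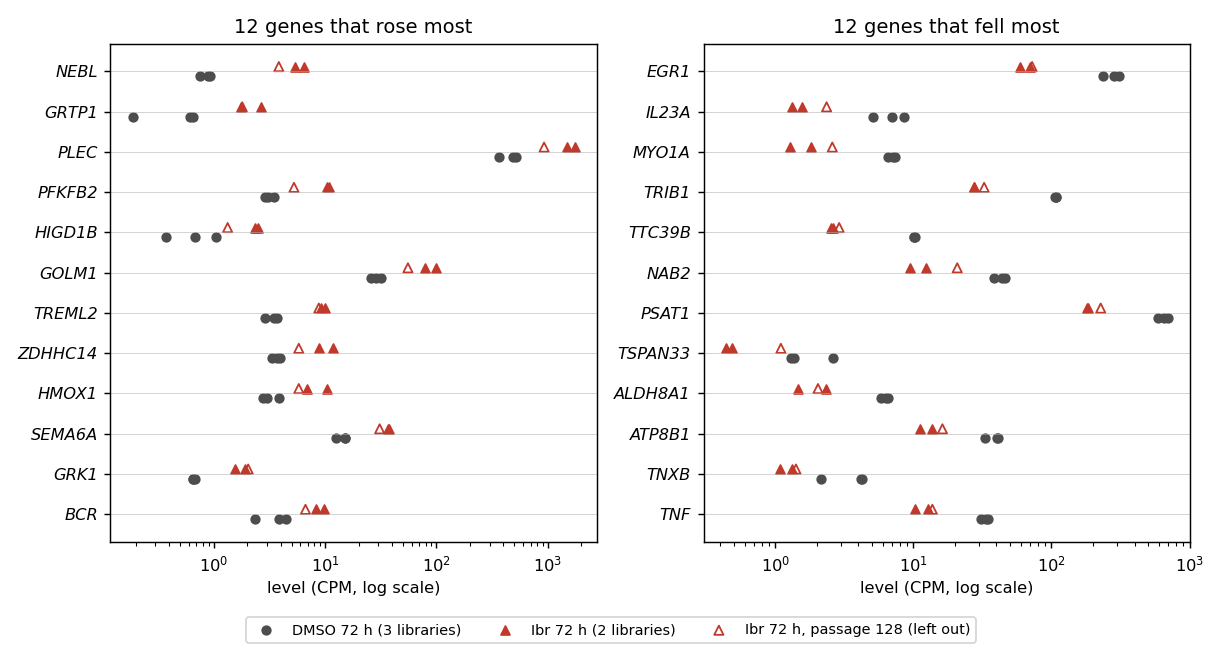
Levels (CPM, log scale, x axis) of 12 raised and 12 lowered genes with a symbol (y axis), with a point per library for DMSO 72 h (circles), Ibr 72 h replicates 1 and 2 (filled triangles) and the left-out Ibr 72 h library (open triangles). The circles and filled triangles do not overlap, which the naming rule required, and several open triangles lie between them, as for PLEC at 926 CPM.

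GRTP1, a growth-hormone-regulated Rab GTPase activator, and NEBL had the highest log2 FCs among DEGs with a symbol and at least 1 CPM. NEBL (ENSCAFG00000004130) encodes nebulette, an actin-binding protein. It had 0.749, 0.934 and 0.894 CPM with DMSO and 5.396 and 6.45 CPM with Ibr, so it was low in all DMSO libraries and several times higher in both Ibr libraries. The left-out library had 3.84 CPM. Its log2 FC was 2.71 (SE 0.30, adjusted p-value 4.99e-13). PLEC (ENSCAFG00000001433), the plectin linker between intermediate filaments and actin, had 486, 367 and 521 CPM with DMSO and 1482 and 1740 CPM with Ibr. It rose 3.52-fold by the fit (log2 FC 1.82, SE 0.20, adjusted p-value 4.93e-07), and the left-out library, at 926 CPM, lay between the groups. MYH9, the heavy chain of non-muscle myosin IIA, was higher by less, at 1072 ± 140.1 CPM (SD, n = 3) with DMSO and 1806 ± 16.4 CPM (n = 2) with Ibr (log2 FC 0.76, adjusted p-value 4.70e-09). PARVG, a parvin that ties integrins to actin, had a log2 FC of 0.88 (adjusted p-value 4.20e-11), and the integrin ITGA4 one of 0.80 (0.000922).

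Of the 24 members tested of the list on actin, adhesion and migration, NEBL was the DEG (3.99% of all genes were DEGs). At an adjusted p-value of at most 0.05, 12 were higher and 4 lower (background 8.36% higher and 9.26% lower). A mean of at least 1 CPM was reached by 22 members, so that background over all genes is a low yardstick. The median log2 FC was 0.34, against 0.04 over the genes with a symbol. Lower members included PLXNB2, a semaphorin receptor (log2 FC -0.80), CTNNA1, alpha catenin (-0.84, adjusted p-value 0.00433), and EPB41L2 (-0.32, adjusted p-value 0.0117).

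PFKFB2 (ENSCAFG00000011550), which sets the level of fructose 2,6-bisphosphate and thereby glycolysis, had 3.47, 2.896 and 3.09 CPM with DMSO, 10.4 and 10.9 CPM with Ibr and 5.26 CPM in the left-out library. It rose with a log2 FC of 1.72 (SE 0.21, adjusted p-value 3.66e-11). GOLM1 (ENSCAFG00000001350), a Golgi membrane protein, had 31.9, 25.7 and 28.9 CPM with DMSO and 78.3 and 98.8 CPM with Ibr (log2 FC 1.62, adjusted p-value 5.00e-13). Neither gene had overlapping groups, which the naming rule required. SEMA6A, a transmembrane semaphorin, had 15.1, 12.4 and 15.2 CPM with DMSO and 37.3 and 36.8 CPM with Ibr (log2 FC 1.36). TREML2, a receptor of the TREM family found on B cells (log2 FC 1.54), ZDHHC14, a palmitoyltransferase (1.52), and BCR, the RhoGEF gene known from the BCR-ABL fusion and not the B-cell receptor (1.31), were DEGs as well. ZDHHC14 had a log2 FC of 0.98 without the whole of replicate 1, and BCR one of 0.84 without the whole of replicate 2, both below the limit. The left-out Ibr library was part of both fits. HMOX1 (ENSCAFG00000001711), heme oxygenase 1, had 2.79, 2.99 and 3.82 CPM with DMSO and 6.85 and 10.5 CPM with Ibr (log2 FC 1.43, adjusted p-value 0.0362). Its call rests on single libraries: the adjusted p-value was 0.358 without Ibr 72 h replicate 2, 0.133 without DMSO 72 h replicate 1 and 0.0839 without DMSO 72 h replicate 2. GRTP1, HIGD1B and GRK1 rose at low levels. GRTP1 had 9, 2 and 8 reads with DMSO and 24 and 27 with Ibr, and HIGD1B, of a family of hypoxia-inducible domain proteins, had 10, 4 and 13 and 34 and 24 reads. GRK1, rhodopsin kinase, had 10, 7 and 8 reads with DMSO and 26 and 16 with Ibr. GRK1 was not a DEG without Ibr 72 h replicate 1 (adjusted p-value 0.11), Ibr 72 h replicate 2 (0.0674) or DMSO 72 h replicate 1 (0.0786).

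In the list on BCR signalling, EGR1 was the DEG among 14 members tested (3.99% of all genes were DEGs), 5 members were higher and 2 lower at an adjusted p-value of at most 0.05 (8.36% and 9.26% of all genes), and the median log2 FC was 0.23. The higher members include negative and positive regulators. PTPRJ, a receptor phosphatase that acts on Src kinases, had 130.2, 108 and 114 CPM with DMSO and 207 and 226 CPM with Ibr (log2 FC 0.88, adjusted p-value 0.00272). INPP5D, the phosphatase SHIP1 that removes the product of PI3K, had a log2 FC of 0.53 (adjusted p-value 7.30e-05), and PIK3R1, the regulatory subunit of PI3K, one of 0.50 (0.000135). PTK2B, a focal adhesion kinase family member, had 0.28 (0.0442), while MALT1 (0.24, 0.577) and NFATC1 (-0.08, 0.758) did not pass. In the list on B-cell identity, SLA was the DEG among 12 members, 5 were higher and 2 lower by the same rule, with a median log2 FC of 0.20. SLA, an adapter that dampens antigen receptor signalling, had 9.19, 7.75 and 8.94 CPM with DMSO and 17.4 and 18.5 CPM with Ibr (log2 FC 1.08, SE 0.16). Its log2 FC was 0.89 without the whole of replicate 2, with the left-out Ibr library kept in, and 0.91 without Ibr 72 h replicate 2, below the limit of 1. TNFRSF13C (0.79) and the RhoGEF DEF6 (0.71) were higher, and HIVEP2 was lower (-0.97, adjusted p-value 0.00429).

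**Figure D3:**
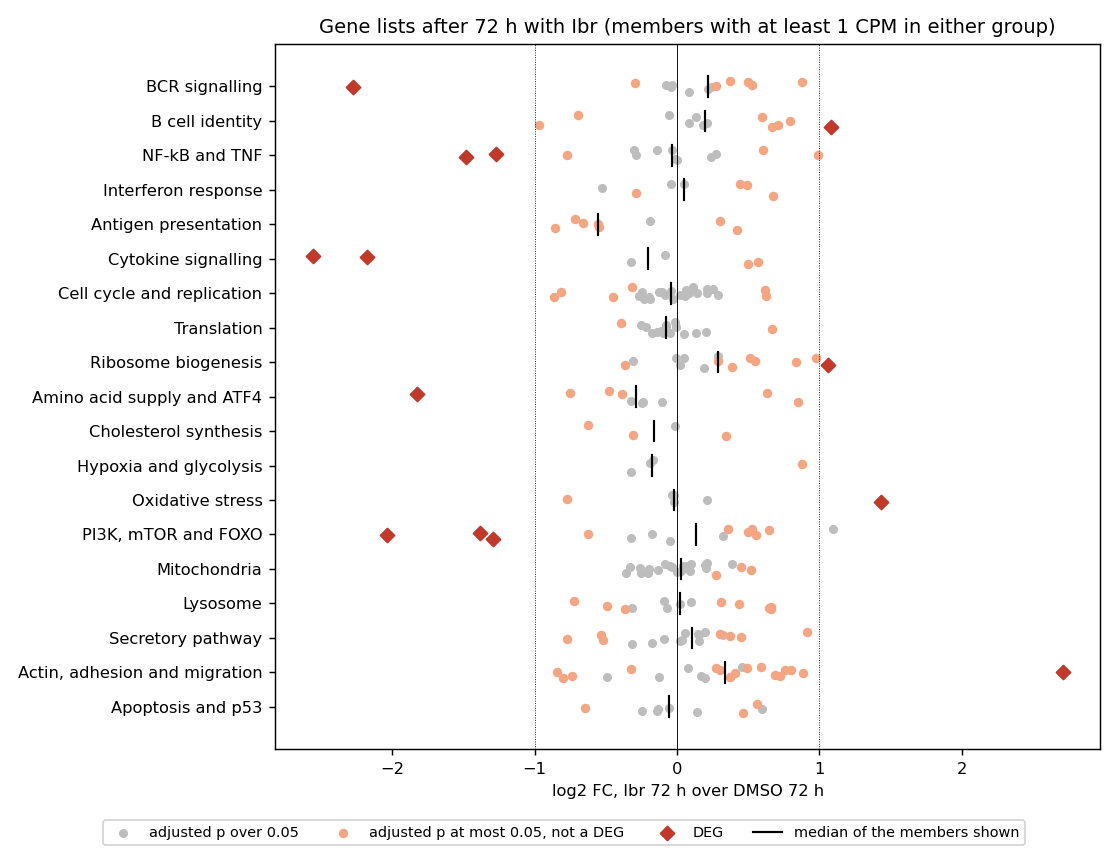
For each gene list (y axis), points give the log2 FC of Ibr 72 h over DMSO 72 h (x axis) of the members with at least 1 CPM in either group, coloured by whether they passed the test, and a black bar gives the median of the members shown. Antigen presentation lies lowest, with DLA-DRA at -0.86, and NEBL at 2.71 stands apart from the rest of the actin list.

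Antigen presentation had the lowest median, -0.55 over 8 members, of which 5 were lower and 2 higher at an adjusted p-value of at most 0.05 (9.26% and 8.36% of all genes) and none was a DEG. DLA-DRA, the alpha chain of MHC class II, had 4525, 4713 and 4197 CPM with DMSO, 2614 and 2258 CPM with Ibr and 3528 CPM in the left-out library. Its log2 FC was -0.86 (SE 0.12, adjusted p-value 9.86e-08), and the Ibr libraries lay below the DMSO libraries. DLA-DQA1 (-0.72), DLA-DMA (-0.56) and DLA-DOA (-0.55), of the same pathway, were lower too. The left-out library had 511 CPM for DLA-DMA, close to the 518 CPM of the DMSO library of the same passage. At 24 h DLA-DRA was higher with Ibr (log2 FC 0.36, adjusted p-value 0.0217). DLA88, of MHC class I, had a log2 FC of -0.66, and its value is uncertain because class I genes are near-identical copies that can share reads. The chaperones TAPBP (0.42) and CANX (0.30) were the higher members.

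Ribosome biogenesis had 14 members tested, of which 7 were higher and 1 lower at an adjusted p-value of at most 0.05 (8.36% and 9.26% of all genes). The median log2 FC was 0.29, and 3.99% of all genes were DEGs. BYSL, needed for the small ribosomal subunit, was the DEG, at 75.6, 73.2 and 75.6 CPM with DMSO and 156 and 162 CPM with Ibr (log2 FC 1.06, SE 0.10, adjusted p-value 1.47e-15). Its log2 FC lies near the limit of 1, and it was not a DEG with all 36 libraries (0.96), without replicate 1 (0.91) or without replicate 2 (0.87). Each of these fits held the left-out Ibr library. POP1, of RNase P and MRP (0.98), WDR46 (0.83) and UTP20 (0.55) were higher and GNL1 lower (-0.37). Of 16 translation genes 1 was higher (EIF4G2, 0.66) and 1 lower (EIF3E, -0.39), against 17.6% of all genes in either direction, and their median was -0.08. For EIF3E the left-out library had 1006 CPM, within the DMSO range of 959 to 1259 CPM.

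In the remaining lists of cell functions the medians lay between -0.25 and 0.15, and the counts that follow are at an adjusted p-value of at most 0.05, which 17.6% of all genes passed (8.36% higher, 9.26% lower). Cell cycle and replication had 28 members, of which 2 were higher, PCNT (0.62) and TCF19 (0.62), and 4 lower, with the phosphatase CDC25C at -0.86 and the inhibitor CDKN2B at -0.82. Of 23 mitochondrial genes, 3 were higher, ME2 (0.45), SCO2 (0.52) and HSPA9 (0.28). Of 14 lysosome genes 5 were higher and 3 lower, and of 19 secretory pathway genes 4 were higher and 3 lower, with TRAM2 at 0.92 and ARFGAP3 at -0.78. Of 9 apoptosis and p53 genes 2 were higher, BAK1 (0.46) and GSDMD (0.56), and MDM2 was lower (-0.64). HIF1AN, an inhibitor of HIF1, was the higher one of 6 hypoxia and glycolysis genes (0.88). Of 6 oxidative stress genes HMOX1 was higher and SQSTM1 lower. Of 4 cholesterol genes, ACAT2 (-0.62) and SQLE (-0.31) were lower and ERLIN1 (0.34) higher. For ACAT2 the left-out library had 533 CPM, within the DMSO range of 499 to 547 CPM. None of the 5 T and NK cell, 3 myeloid and 6 melanocyte and epithelial markers passed the test.

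Of the genes the study discusses, 6 had a symbol. Some were chosen on these samples and others from a pathway, so their values are no independent evidence. DSE (0.63, adjusted p-value 1.85e-07) and PIK3R1 were higher, and MYB, a transcription factor of lymphoid progenitors, was lower (-0.70, 5.96e-06). MYC was lower by little (-0.29, 0.0462), while the survival gene BCL2 (-0.06, 0.898) and NHSL1 (-0.19, 0.809) did not pass.

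The passages gave changes of unlike size. For PLEC the log2 difference between the Ibr and the DMSO library of a passage was 1.61 in passage p121, 2.24 in passage p126 and 0.83 in passage p128, whose Ibr library was left out. For PSAT1 the differences were -1.70, -1.82 and -1.61, and for EGR1 they were -2.01, -2.01 and -2.10. Over the 242 higher DEGs the median difference was 1.296 in passage p121, 1.56 in passage p126 and 0.95 in passage p128, and over the 503 lower DEGs it was -1.45, -1.63 and -0.95. In passage p128, 231 of the higher DEGs (95.5%) and 485 of the lower DEGs (96.4%) had the sign of their group, with a smaller median than in the other passages. The DEGs were called with the Ibr libraries of passages p121 and p126, so a smaller median in passage p128 can come from that choice alone. A difference between passages was not tested. Because the DMSO library of passage p128 was part of the tests, the fit was repeated on passages p121 and p126 alone. It called 733 of 18076 genes (4.06%), and 687 of these (93.7%) had the same sign in passage p128, against 58.2% of all genes. With filterByExpr, which drops genes of low counts, the shares were 94.3% and 71.3%. The median log2 difference of the called genes was 1.44 for the higher and -1.52 for the lower ones in that fit, and 0.79 and -0.91 in passage p128. These genes too were called without passage p128, so smaller medians there can come from the choice.

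**Figure D4:**
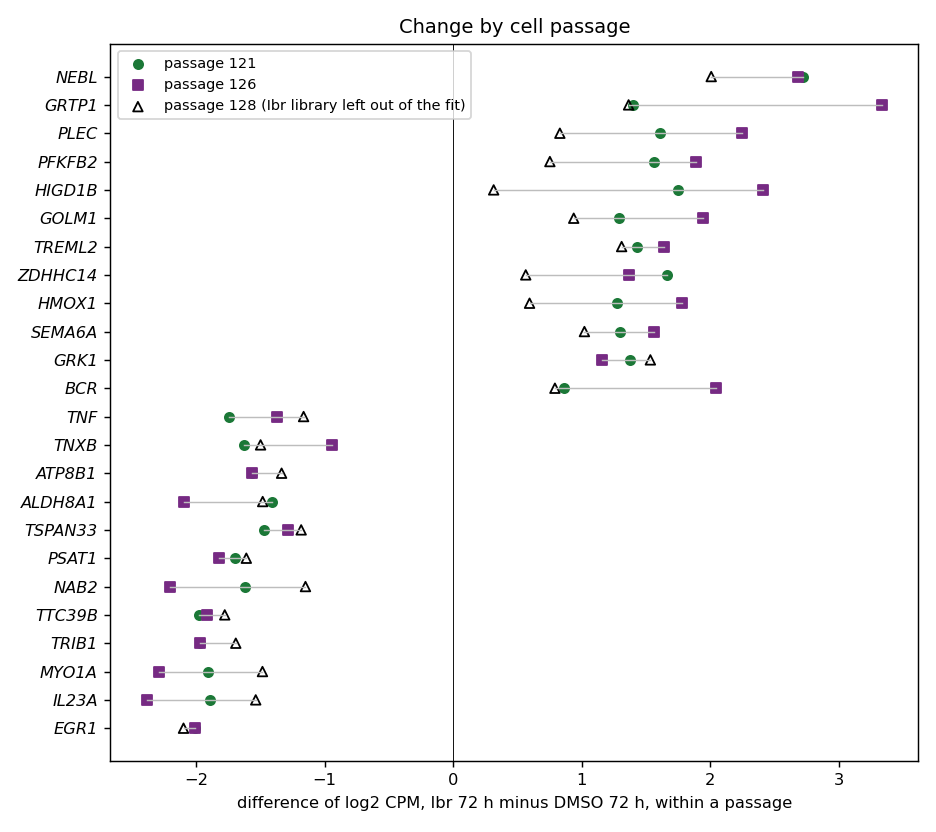
The log2 difference between Ibr 72 h and DMSO 72 h within a passage (x axis) is shown for the 24 named genes (y axis), for passages p121 (circles), p126 (squares) and p128 (open triangles, Ibr library left out of the tests). Differences in passage p128 are smaller for many genes, as for PLEC (0.83 against 1.61 and 2.24). The named genes were picked with the Ibr libraries of the other passages, so smaller differences in passage p128 can come from that choice.

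At the earlier times the same dose of Ibr called fewer DEGs, 210 (1.12%) at 24 h and 374 (2%) at 48 h, in libraries not used at 72 h. At 24 h most were higher (163 of 210) and at 48 h the split was 166 higher and 208 lower. The 242 genes higher at 72 h had a median log2 FC of 0.44 at 24 h and 0.59 at 48 h. At 24 h 49 of them were higher and 1 lower DEGs, and at 48 h 58 were higher and 1 lower, against 0.873% and 0.889% of all genes called higher at these times. The 503 genes lower at 72 h had a median of -0.03 at 24 h and -0.59 at 48 h. At 24 h 21 of them were lower and 12 higher DEGs, and at 48 h 96 were lower and 3 higher, against 0.252% and 1.11% of all genes called lower. The Ibr effect at 72 h differed from that at 24 h for 732 genes (3.92%) and from that at 48 h for 362 genes (1.94%).

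The level of these genes in the DMSO libraries was not constant over time. Between 24 h and 72 h, 1076 genes (5.76%) were DEGs with DMSO alone and 179 (0.959%) with Ibr, the latter with 2 libraries at 72 h. The comparisons share libraries, so each is given by its own values. PSAT1 had a mean of 209, 234 and 646 CPM with DMSO at 24, 48 and 72 h and 168, 177 and 183 CPM with Ibr. The Ibr means lay close together and the DMSO mean at 72 h stood above all others. The Ibr effect differed from 24 h by -1.49 on the log2 scale (SE 0.14, adjusted p-value 1.22e-15). TRIB1 had 28.1, 42.5 and 107 CPM with DMSO and 27.01, 36.3 and 27.5 CPM with Ibr (difference from 24 h -1.96, adjusted p-value 0.000489). TNF had 14.9, 21.3 and 32.97 CPM with DMSO and 13.4, 20.2 and 11.5 CPM with Ibr, and IL23A 1.24, 2.18 and 6.87 and 1.69, 0.963 and 1.44 CPM (difference from 24 h -2.58, adjusted p-value 3.65e-06). MYO1A had 1.15, 2.14 and 7.01 CPM with DMSO and 0.784, 0.589 and 1.55 CPM with Ibr. ALDH8A1 had 1.22, 1.96 and 6.24 CPM with DMSO and 0.799, 1.23 and 1.90 CPM with Ibr. IER3 had 7.62, 11.3 and 18.5 CPM with DMSO and 6.36, 6.41 and 7.63 CPM with Ibr. PLEC went the other way, at 879, 852 and 458 CPM with DMSO and 1072, 1104 and 1611 CPM with Ibr (difference from 24 h 1.55, SE 0.27, adjusted p-value 0.000289).

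EGR1 was already lower at 24 h. It had 118, 152 and 277 CPM with DMSO and 24.5, 49.5 and 64.5 CPM with Ibr at 24, 48 and 72 h, with a log2 FC of -2.47 at 24 h (adjusted p-value 0.00537) and -1.69 at 48 h (0.0424). Its libraries varied widely at 48 h, with an SD of 115 CPM with DMSO and 51.8 CPM with Ibr (n = 3 each). At 24 h the SD with Ibr was 17.9 CPM. The difference between 72 h and 24 h was 0.19 with an SE of 0.79, which is within its error. NAB2 was lower at 24 h (log2 FC -0.91) and at 48 h (-1.47), and the 72 h effect differed from that at 24 h (-0.98, adjusted p-value 0.000173), while the difference from 48 h did not pass (-0.41, SE 0.20, adjusted p-value 0.223). NEBL rose at 24 h (1.28, adjusted p-value 8.57e-05), and ENSCAFG00000028656 had means of 0.461, 0.487 and 0.383 CPM with DMSO and 11.4, 8.65 and 6.28 CPM with Ibr. PLXNB2 changed direction: its log2 FC was 1.27 at 24 h and -0.80 at 72 h (difference -2.07, SE 0.23, adjusted p-value 1.70e-09). DLA-DRA did so too, from 0.36 at 24 h (adjusted p-value 0.0217) to -0.86 at 72 h (difference -1.21, SE 0.16, adjusted p-value 3.88e-08). Its means at 24 h and 72 h were 2646 and 4478.5 CPM with DMSO and 3426 and 2436 CPM with Ibr. P4HA2, a subunit of collagen prolyl hydroxylase, had 2.095, 10.3 and 11.4 CPM with DMSO and 2.43, 2.92 and 10.1 CPM with Ibr, so that the groups stood apart at 48 h and not at 72 h (difference from 48 h 1.61, adjusted p-value 7.00e-05).

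**Figure D5:**
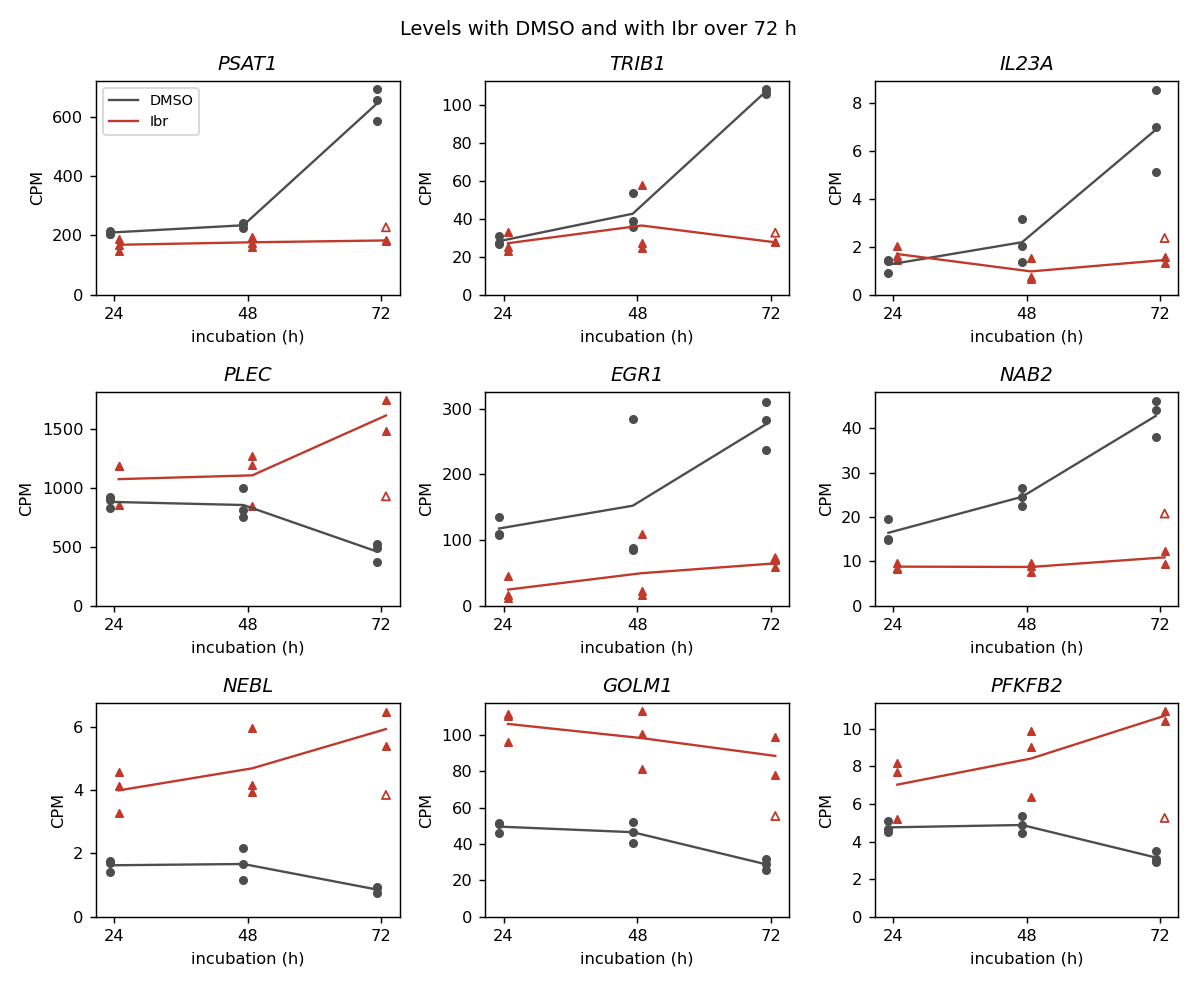
Mean levels (CPM, y axis) over time (24, 48 and 72 h, x axis) with DMSO and with Ibr, with a point per library, lines joining the means and the left-out library as an open triangle. PSAT1 has means of 209, 234 and 646 CPM with DMSO and 168, 177 and 183 CPM with Ibr at 24, 48 and 72 h.

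Set directly against AS at 72 h, 78 genes (0.418%) were DEGs, 27 higher and 51 lower with Ibr. The count was 33 without Ibr 72 h replicate 2, 51 without Ibr 72 h replicate 1, 43 and 41 without the whole of replicate 1 or 2, and 48 with all 36 libraries. NEBL was higher than with AS (log2 difference 2.54, SE 0.29, adjusted p-value 8.86e-11), with a mean of 0.934 CPM with AS. PFKFB2 (1.33, adjusted p-value 1.41e-06) and SLA (1.02) were higher too. NAB2 was lower (-1.26, SE 0.15, adjusted p-value 5.17e-10), at 27.6 CPM with AS, as were TPH2 (-1.81, 0.00551), and GNMT, glycine N-methyltransferase (-1.05, 0.036). For PSAT1, at 165 CPM with AS, the difference was 0.12 (SE 0.10, adjusted p-value 0.797). For PLEC, at 1214 CPM with AS, it was 0.39 (SE 0.20, 0.507), and for EGR1, at 171 CPM with AS, -1.67 (SE 0.61, 0.227). Of these calls, SLA fell below the limit without Ibr 72 h replicate 2 (0.85), NAB2 without the whole of replicate 1 (-0.92) or 2 (-0.89), and PFKFB2 without the whole of replicate 1 (0.88). Leaving out replicate 1 or 2 whole, here and in the counts above, brought the left-out Ibr library into the fit. TPH2 (adjusted p-value 0.412) did not pass without Ibr 72 h replicate 2, and GNMT (0.949) did not pass without Ibr 72 h replicate 1. The calls of GNMT (adjusted p-value 0.0637) and SLA (log2 difference 1.00, under the limit of 1 before rounding) were lost without the passage block too. GNMT also lost its call without any 1 of the AS 72 h libraries and with DESeq2 (0.052). A p-value that misses the threshold does not show that the inhibitors act alike on these genes.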

How the data were processed

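CLBL-1 cells were incubated with 1 μM Ibr, 5 μM AS, both or DMSO for 24, 48 or 72 h, and poly-A RNA was sequenced as 75 bp single-end reads. The deposited values are raw read counts per gene that the authors made with STAR (version 2.7.5a, per the submitters' processing notes) on the dog genome with Ensembl gene models. The counting column, and so the use of strand, is not given in the sources used here, and overlapping genes cannot be told apart. Libraries held 9941919 to 14703839 counts, and the floors above cover counting error only. Columns were matched to samples by name. The title of 1 DMSO 24 h library and its passage label disagree, and the passage label was used.

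Genes with at least 2 reads (18670 of 30424) were fitted with edgeR 4.0.16 (quasi-likelihood, robust, TMM factors, R 4.3.3) on 35 libraries with group and passage as terms, after the design of the study. All p-values are adjusted by Benjamini-Hochberg over all genes tested, the SE is the absolute log2 FC divided by the square root of F, and DEGs have an adjusted p-value no higher than 0.05 with a log2 FC beyond 1 in either direction. The difference between times is an interaction contrast. On simulated data for the 72 h comparison, 199 of 200 genes changed by a log2 FC of 2 were recovered among 18148 genes, with 9 calls among the others. The changed genes had at least 1 CPM and no passage effect was simulated. Recovery of smaller changes, or of changes at lower levels, was not tried. Deviations from group means correlated with a median r of 0.0916 between libraries of the same passage and -0.034 between other passages, and the labels name the passage.

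Named genes are the 12 DEGs with a symbol of highest and the 12 of lowest log2 FC, with at least 1 CPM and no overlap, by the same limits the 2 genes without a symbol in each direction, the DEGs and up to 3 members by lowest p-value of each list, the genes the study discusses, and the 3 highest and 3 lowest of each other contrast. Further list members named (such as ATF4, TNFAIP3, MALT1, NFATC1, HIVEP2 and CDKN2B) were chosen after their values were seen. The members and lists were chosen with earlier results of these data known. Alternatives were DESeq2 1.42.0, RLE factors, filterByExpr, glmTreat, all 36 libraries, no replicate block, a term for the sequencing run (inferred from sample-sheet numbers in the table's header, not given by the labels), the compared groups only and leaving out libraries. Fold changes and p-values of the authors were not used. No sequence is shown, because no sequence table was used here.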

Additional observations from a re-analysis of the deposited data

Results flagged for a closer look

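The Ibr effect differed between times by an interaction contrast for 732 genes between 72 h and 24 h and for 362 genes between 72 h and 48 h (edgeR, adjusted p-value of at most 0.05 and absolute log2 difference above 1). Among genes with a symbol and at least 1 CPM, the highest differences from 24 h were those of HIGD1B (2.11), GRK1 (1.87) and GRTP1 (1.60), and the lowest those of IL23A (-2.58), PLXNB2 (-2.07) and A4GALT (-2.07). From 48 h the highest were GRTP1 (3.33), HIGD1B (2.07) and P4HA2 (1.61), and the lowest FBXO32 (-1.93), TRIB1 (-1.80) and PSAT1 (-1.43). GRTP1 had a mean of 1.23, 1.86 and 0.483 CPM with DMSO and 1.82, 0.805 and 2.19 CPM with Ibr at 24, 48 and 72 h, and its difference from 24 h did not pass without Ibr 72 h replicate 2 (adjusted p-value 0.238) or DMSO 72 h replicate 2 (0.108). HIGD1B had 1.62, 1.47 and 0.704 CPM with DMSO and 1.19, 1.099 and 2.41 CPM with Ibr. Its difference from 48 h did not pass without the whole of replicate 1, with the left-out Ibr library kept in (adjusted p-value 0.108). A4GALT had 4.68, 6.14 and 6.599 CPM with DMSO and 7.85, 4.15 and 2.51 CPM with Ibr. FBXO32, a ubiquitin ligase subunit, had 0.775, 0.313 and 0.532 CPM with DMSO and 2.33, 2.595 and 1.18 CPM with Ibr, and its difference from 48 h did not pass without Ibr 72 h replicate 1 (adjusted p-value 0.221) or 2 (0.0571), DMSO 72 h replicate 1 (0.381) or 2 (0.0785), the whole of replicate 1 (0.634), without the passage block (0.0545), with DESeq2 (0.0525) or with glmTreat.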

How the results depend on the processing

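With glmTreat, which tests for a change beyond a log2 FC of 1, the 745 DEGs became 154, the differences from 24 h 57 and from 48 h 3, and the DEGs against AS 7, fewer by the construction of that test. With all 36 libraries 652 DEGs were called against DMSO and 48 against AS. Without passage as a block the counts were 759 against DMSO, 721 and 337 for the differences from 24 h and 48 h, and 67 against AS. Leaving out single libraries or passages gave 468 to 733 DEGs against DMSO (468 without replicate 2), 512 to 744 and 259 to 497 for the differences, and 33 to 77 against AS, where Ibr 72 h replicate 2 (33 without it) and replicate 1 (51), and whole passages p121 (43) and p126 (41), moved the count by over 1.5 times. Where replicate 1 or 2 was left out whole, Ibr 72 h replicate 3 was kept. DESeq2 called 652, 695, 347 and 70 genes. The share of genes with the same sign in passage p128 was 92.2% to 94.3% of those called and 58.0% to 71.3% of all genes. NHSL1, which was not called, had a log2 FC from -0.51 to 0.0109 with single libraries left out, above 0 without DMSO 72 h replicate 1. Over the 105 named results and their alternatives, 1578 of 1680 values kept their direction and side of the threshold, 96 lost the call, 5 gained it and 1 changed sign. The tally includes many results that were not called and so had no call to lose. The 96 losses fell on 37 called results, so the share that was kept overstates how firm the calls are. The causes were not tested. The 2 Ibr libraries and the floor of 3 reads limit what can be said of genes near silence, and symbols cover 5.72% of the genes tested.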
